A study of Homo sapiens with 4 samples.

Results

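The HOX cluster genes were examined for binding of ATOH8 and TCF3 in DU145 cells, an established line of human prostate cancer. They comprise 38 HOX genes, of 19974 protein-coding genes on chromosomes 1 to 22 and X, and were chosen by name with earlier results of these peak lists in view. A ChIP-seq peak, a stretch of DNA enriched in an immunoprecipitate, was assigned to a HOX gene when its midpoint lay inside the gene or within 5 kb of a gene end (RefSeq annotation, GRCh38.p14). The labels name 4 DU145 libraries, with 1 library per group: ATOH8 immunoprecipitated with Flag, TCF3 immunoprecipitated with Myc, and an input for each. Treatment, the way the tagged proteins were expressed and their levels were not given in the sources used here. Peaks carry no expression values, so neither the identity of the cells nor HOX expression could be checked against markers. ATOH8 and TCF3 are basic helix-loop-helix (bHLH) factors, and TCF3 is one of the E proteins, which pair with other bHLH factors and bind E-boxes, short DNA words of the form CANNTG.

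HOX genes encode homeodomain transcription factors that give cells their position along the head-to-tail axis. They lie in clusters named A to D, on chromosomes 7, 17, 12 and 2, and within a cluster they are ordered by paralog number, from the anterior genes (1 to 3) through the central genes (4 to 8) to the posterior genes (9 to 13). Low paralog numbers act towards the head and high numbers towards the tail and the ends of the limbs. In adult tissues the clusters are held silent by Polycomb complexes or kept active by Trithorax complexes, and HOXB13 is the lineage factor of the prostate epithelium.

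The promoters of 4 posterior or central genes that a TCF3 peak reached are shown first, because they show how unlike the promoters at these peaks were in E-boxes and CG content. Of 38 members, 20 had a transcription start in the RefSeq promoter table (GRCh38.p14), and the 250 bases before the start are given 5′ to 3′ on the gene's strand. Capitals mark E-box words (CANNTG, which reads the same form on both strands) that lie wholly within these bases.
HOXA7 (chr7:27156676-27156925, minus strand): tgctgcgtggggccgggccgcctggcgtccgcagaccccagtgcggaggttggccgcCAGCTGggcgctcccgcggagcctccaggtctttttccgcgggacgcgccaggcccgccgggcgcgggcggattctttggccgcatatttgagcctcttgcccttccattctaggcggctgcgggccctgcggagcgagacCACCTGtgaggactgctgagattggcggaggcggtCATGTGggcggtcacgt
HOXA9 (chr7:27165538-27165787, minus strand): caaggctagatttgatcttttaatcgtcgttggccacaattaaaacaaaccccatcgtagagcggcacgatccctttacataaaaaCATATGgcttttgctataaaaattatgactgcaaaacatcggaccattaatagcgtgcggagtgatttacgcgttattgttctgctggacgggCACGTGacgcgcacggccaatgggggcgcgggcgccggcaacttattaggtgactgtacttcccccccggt
HOXA13 (chr7:27200092-27200341, minus strand): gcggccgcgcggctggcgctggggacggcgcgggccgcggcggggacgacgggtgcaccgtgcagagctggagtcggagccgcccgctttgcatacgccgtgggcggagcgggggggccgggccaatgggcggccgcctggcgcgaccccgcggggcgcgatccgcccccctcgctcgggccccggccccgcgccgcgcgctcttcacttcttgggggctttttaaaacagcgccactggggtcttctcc
HOXD13 (chr2:176092471-176092720, plus strand): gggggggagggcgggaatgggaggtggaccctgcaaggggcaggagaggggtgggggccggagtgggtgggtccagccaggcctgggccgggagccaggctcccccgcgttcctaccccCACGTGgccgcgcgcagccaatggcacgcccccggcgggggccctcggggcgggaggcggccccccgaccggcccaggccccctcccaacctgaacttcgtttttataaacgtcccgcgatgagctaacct
These stretches held 3 E-box words at HOXA7, 2 at HOXA9, 0 at HOXA13 and 1 at HOXD13. They held 28, 20, 40 and 21 CG dinucleotides, in the same order. The peaks covered all 250 bases at HOXA13 and HOXD13, 187 at HOXA7 and 113 at HOXA9. CAGCTG at HOXA7 and CACGTG at HOXA9 and HOXD13 lay under the peaks, while CACCTG and CATGTG at HOXA7 and CATATG at HOXA9 lay outside them.

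The lists named many more TCF3 than ATOH8 peaks at HOX genes. TCF3 peaks were listed at 27 of 38 members (71.1%, Wilson 95% interval 55.2 to 83.0%), where 32.9% of all protein-coding genes had one. ATOH8 peaks were listed at 5 of 38 (13.2%, 5.75 to 27.3%), against 25.1% of protein-coding genes. Each of the 5 also had a TCF3 peak, so 5 of 38 members had both (13.2%), close to the 11.8% of protein-coding genes with both. As the genes were chosen with these counts known, the figures describe the members and no test was made. The intervals cover the counting of genes only, and neighbouring members share peaks. HOX genes were short, with a median length of 3786 bp against 24171 bp for all protein-coding genes, so their windows offered less room than most. By length, from 5 kb before the first to 5 kb after the last member, HOXA held 1.82 ATOH8 peaks per 100 kb. HOXB held 0.951, from 2 peaks in each of these clusters, and HOXC and HOXD held 0. Over the merged windows of all protein-coding genes the ATOH8 density was 0.316 per 100 kb. The HOX stretches hold more gene ends per kb than those windows. Of the ATOH8 peaks at protein-coding genes, 70.6% lay within 1 kb of a gene end, so the densities compare unlike stretches.

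In distinct peaks, 34 TCF3 and 4 ATOH8 peaks lay at the members, of 11330 and 4951 peaks on these chromosomes. Because the genes lie close together, 16 of the 34 TCF3 peaks counted at more than 1 member, and the 34 peaks made 56 pairs of a gene and a peak. The annotated HOXA3 gene, 45574 bp long, encloses HOXA4, HOXA5 and HOXA6, HOXB3 encloses HOXB4, and HOXC4 encloses HOXC5 and HOXC6, so counts at HOXA3, HOXB3 and HOXC4 include peaks at the enclosed genes. With each peak counted at its nearest member only, 21 members had a TCF3 peak and 4 an ATOH8 peak.

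The counts moved with the window and with the score. Within 1 kb, TCF3 peaks were listed at 21 members (29.3% of protein-coding genes) and ATOH8 peaks at 3 (22.2%). Within 50 kb the counts were 37 (53.7%) and 19 (43.6%). Neighbouring members shared peaks at this distance. The 19 came from only 2 ATOH8 peaks at HOXA and 3 at HOXB genes, with 0 at HOXC and HOXD. With the higher-ranked 50% of each list by score the counts were 14 (19%) and 3 (13.6%). That division fell among peaks of equal score, and with all peaks tied at the lowest kept score the counts were 16 (20.3%) and 4 (13.9%). With the TCF3 list shortened to the number of ATOH8 peaks 12 members had a TCF3 peak (16.7%).

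**Figure D1:**
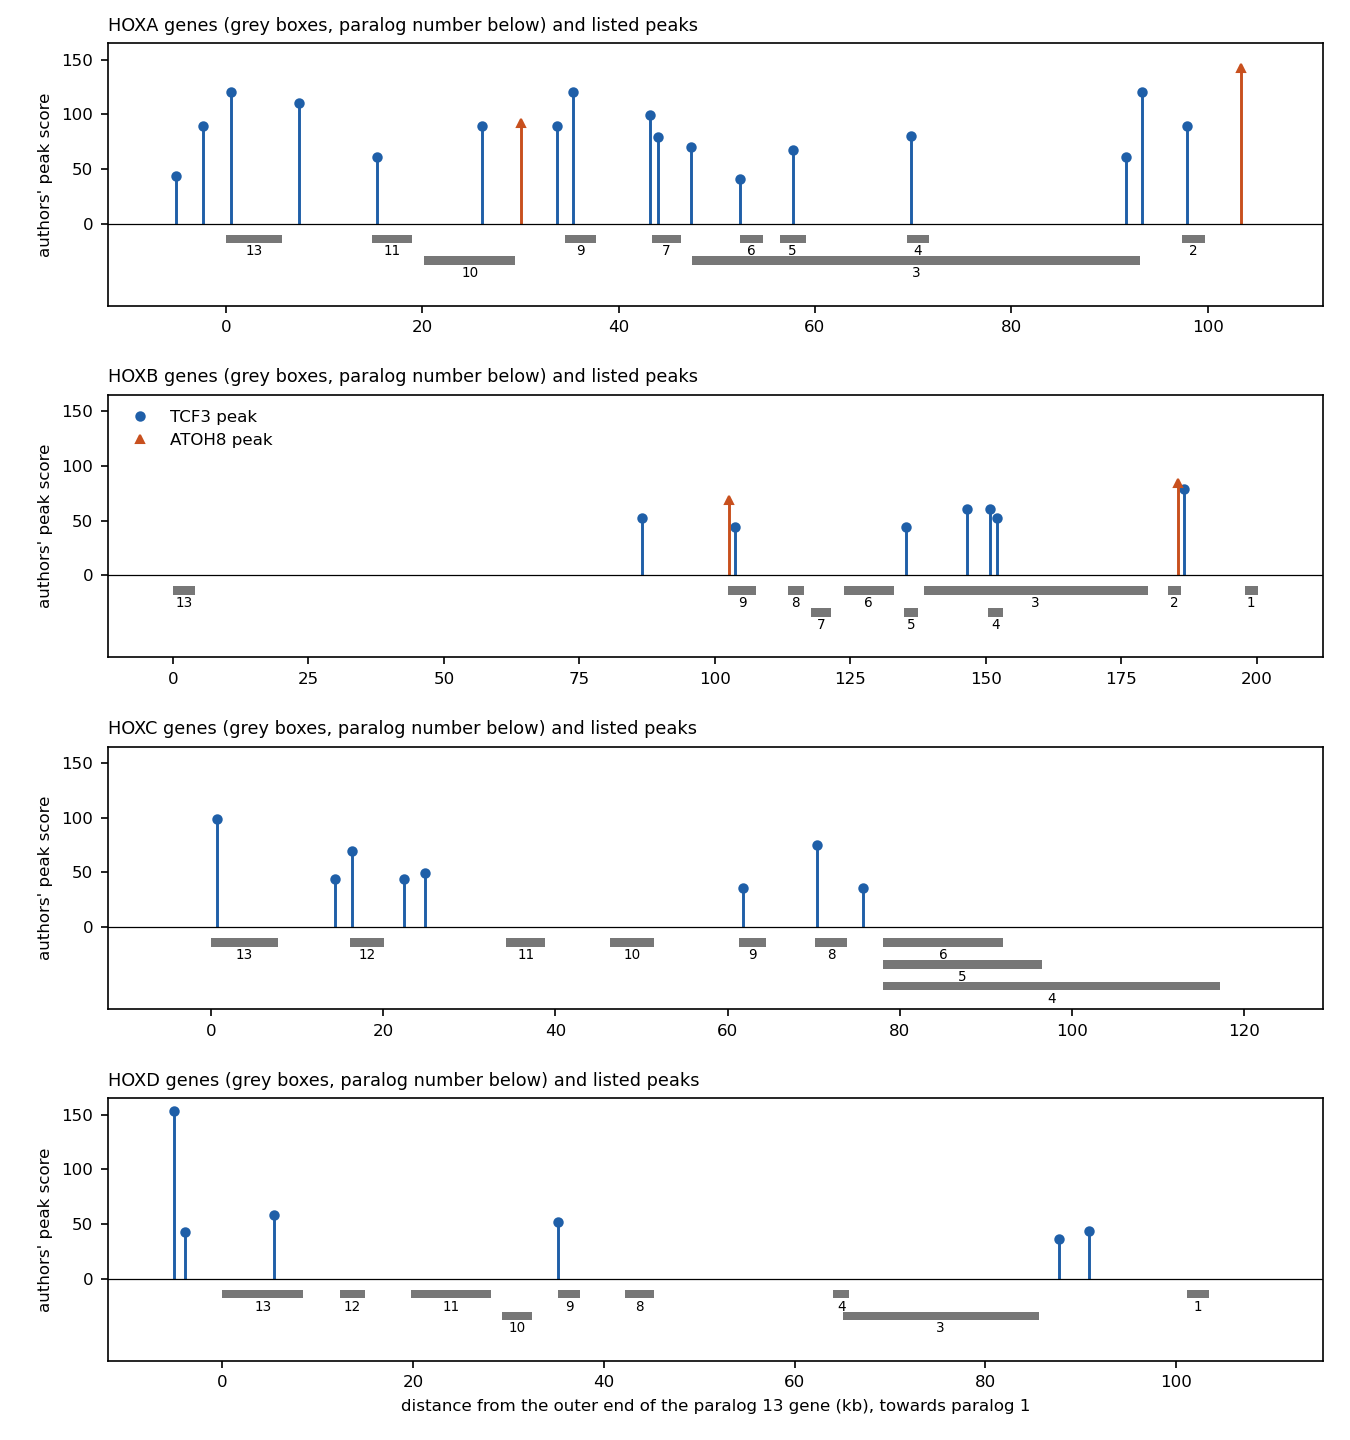
Listed peaks along the HOXA, HOXB, HOXC and HOXD clusters. The x axis is the distance in kb from the outer end of the paralog 13 gene, the y axis the authors' peak score, circles are TCF3 peaks, triangles ATOH8 peaks and grey boxes the member genes; peaks farther than 5 kb from a member are drawn as well. The 16 TCF3 peaks at HOXA genes run from HOXA2 to HOXA13, with a largest spacing of 21836 bp between midpoints, while HOXB, HOXC and HOXD hold 6, 8 and 4.

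The HOXA cluster held 16 of the 34 TCF3 peaks (47.1%), and all 10 HOXA members had at least 1. HOXC genes had 8 peaks at 7 of 9 members, HOXB genes 6 peaks at 6 of 10, and HOXD genes 4 peaks at 4 of 9. The stretch from 5 kb before the first to 5 kb after the last HOXA member (109.7 kb) held 14.6 TCF3 peaks per 100 kb, and TCF3 peaks covered 13.8% of its bases. The same stretches held 6.29 peaks per 100 kb in HOXC, 4.41 in HOXD and 3.33 in HOXB. They took in peaks outside every member's window, so that HOXB counted 7 peaks here and HOXD 5. Over the merged windows of all protein-coding genes the density was 0.527 per 100 kb and the covered share 0.488%. Those windows consist largely of longer genes (median 24171 bp against 3786 bp for HOX genes) and hold fewer gene ends per kb. Of the TCF3 peaks at protein-coding genes, 51.9% lay within 1 kb of a gene end. The part of gene spacing in the difference in density was not tested. HOXA peaks lay close together, with a median spacing of 5365 bp between midpoints, against 6057 bp in HOXC, 14200 bp in HOXB and 19584 bp in HOXD.

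The authors' score of a peak, whose definition was not given in the sources used here, was read only within its own list. HOXA peaks had a median TCF3 score of 89, above that of 71.1% of the list, and 13 of 16 scored above the list median of 61. The medians were 56.5 at HOXB genes, 47.5 at HOXD and 46.5 at HOXC genes, where 1 of 6, 0 of 4 and 3 of 8 peaks were above it. The clusters overlapped: HOXA scores ran from 41 to 120, HOXC from 36 to 99, HOXB from 44 to 79 and HOXD from 36 to 58. Over all 34 peaks the median was 64, near the list median, and none reached the highest scores of the list, which ran to 8401. The TCF3 scores took few values, so that 3 HOX peaks shared a score of 120 and 4 a score of 89.

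**Figure D2:**
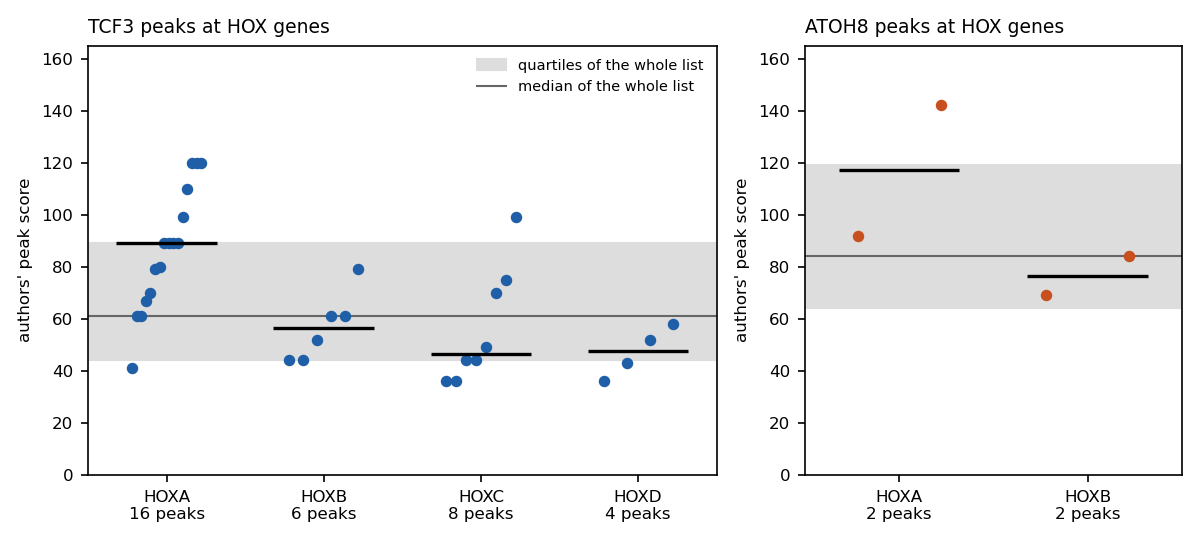
Authors' peak scores (y axis) of TCF3 and ATOH8 peaks at HOX genes by cluster, 1 point per peak, with the cluster median as a black bar. The grey line and band give the median and quartiles of the whole list (61, 44 to 89 for TCF3; 84, 64 to 119 for ATOH8); the HOXA median of 89 lies at the upper edge of the TCF3 band and the other medians lie below 61.

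Among the anterior HOXA genes, HOXA2, which gives the second pharyngeal arch its identity, had TCF3 peaks with scores of 120 and 89. The first (chr7:27106470-27107049) had its midpoint between HOXA2 and HOXA3, 251 bp from the lower-coordinate end of HOXA3, and its edge just inside HOXA3. The second lay inside HOXA2. HOXA3, needed for the thymus and parathyroids, had 9 TCF3 peaks in its window, the most of any member. Of these, 1 (chr7:27152233-27153177, score 70) covered the promoter at its most distal annotated start, and 4 others lay inside the annotated gene.

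The central HOXA genes had TCF3 peaks with scores from 41 to 99. A TCF3 peak with a score of 80 (chr7:27129453-27131126) covered the promoter of HOXA4, and one with a score of 41 (chr7:27147272-27148160), the lowest in the cluster, covered that of HOXA6. HOXA5, which acts in lung development, had an internal peak with a score of 67. At HOXA7 a pair of peaks lay side by side, one inside the gene (score 79) and one over part of its promoter (chr7:27156739-27157145, score 99).

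Several of the broadest HOX peaks of TCF3 lay at posterior HOXA genes. At HOXA9, a regulator of blood progenitors that is active in leukaemia, the peak from 27163877 to 27165650 on chromosome 7 was 1774 bp wide, scored 120 and reached the promoter. A narrower peak followed, with its midpoint 810 bp from the gene (score 89). HOXA10, which acts in the uterus and the lumbar spine, had a peak of 1502 bp with a score of 89 across an internal start. HOXA13, which patterns the digits and the genital tract, had the widest HOX peak in the list, 2110 bp (chr7:27198548-27200657, score 120), across its promoter, with flanking peaks of 110 and 89. HOXA11, a limb and kidney gene, had 1 internal peak with a score of 61. The median width of TCF3 peaks at HOXA genes was 735 bp, close to 719 bp for the list, so breadth marked single peaks and not the cluster.

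At the HOXB cluster TCF3 peaks were fewer and scored at most 79. That highest peak (chr17:48541524-48542685) had its midpoint 551 bp from HOXB2, a hindbrain gene, and its edge just inside the gene. HOXB4, a factor of blood stem cells, had peaks with scores of 52, 61 and 61, and 2 of them lay inside the gene. All 3 counted at HOXB3 as well, which also took in a peak of 44 inside HOXB5. HOXB9, a posterior gene, had 1 internal peak with a score of 44. No TCF3 peak was listed at HOXB1, HOXB7, HOXB8 or HOXB13. The nearest TCF3 midpoint to HOXB13 was 82.5 kb away and the nearest ATOH8 midpoint 98.6 kb away, so the prostate lineage gene had no peak of either list in its window. The lists may have been held in part, and the lack of a listed peak does not show that a gene was unbound.

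Of the 8 HOXC peaks of TCF3, 5 lay at the most posterior genes. HOXC13, which acts in hair and nail growth, had the highest HOXC peak (chr12:53938911-53940000, score 99), and HOXC12 had 4 peaks with scores of 70, 49, 44 and 44. HOXC8, a thoracic gene, had an internal peak with a score of 75 (chr12:54009020-54009397). A peak of 36 (chr12:54014342-54014868) stood upstream of the shared start of HOXC4, HOXC5 and HOXC6, with its midpoint at 2283 bp. It was the sole peak of all 3. HOXC9 had a peak of 36, and HOXC10 and HOXC11 had none, with the nearest midpoints at 10405 and 9467 bp. A score of 36 was above only 0.0265% of the TCF3 list, whose lowest score was 35. HOXC4, HOXC5, HOXC6, HOXC9 and, in HOXD, HOXD3 counted among the 27 members with a TCF3 peak through such a peak alone.

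No TCF3 peak at a HOXD gene scored above 58, the lowest maximum of the clusters. HOXD13, the digit patterning gene, had a peak of 58 across its promoter (chr2:176092355-176093335) and one of 43 beyond it. A peak of 52, 1887 bp wide (chr2:176121745-176123631), had its midpoint 31 bp from HOXD9 and ran into that gene. It counted at HOXD10 too. HOXD3 had only a peak of 36, near the lowest score of the list. HOXD1, HOXD4, HOXD8, HOXD11 and HOXD12 had no TCF3 peak, and none of the 9 HOXD members had an ATOH8 peak, the nearest midpoint being at least 1074 kb away.

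**Figure D3:**
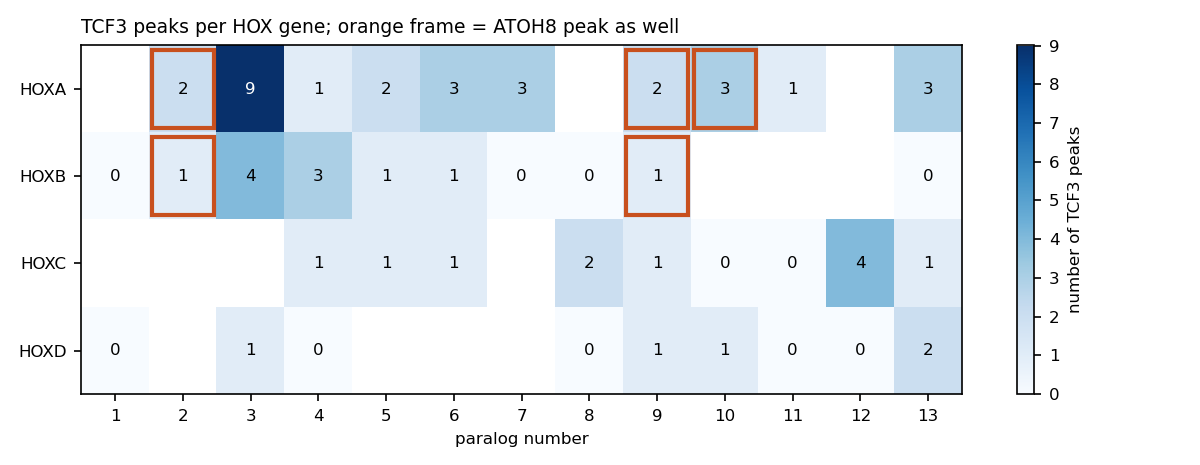
Number of TCF3 peaks at each of the 38 members, by cluster (rows) and paralog number (columns), with orange frames where an ATOH8 peak was listed as well; blank cells hold no gene examined here. HOXA3 has the most (9), and the ATOH8 frames stand at paralogs 2, 9 and 10 of HOXA and 2 and 9 of HOXB.

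By paralog number, TCF3 peaks were listed at 5 of 7 anterior, 11 of 15 central and 11 of 16 posterior members. All members of paralog groups 2, 3, 5, 6 and 9 had a peak, 2, 3, 3, 3 and 4 genes in turn. Neither HOXB1 nor HOXD1 had one, and in groups 8 and 11 only HOXC8 and HOXA11 did, out of 3 each. TCF3 peaks were repeated at 13 members with 2 or more (8.01% of protein-coding genes) and at 8 with 3 or more (2.53%). Of the 8, HOXA3, HOXA6, HOXA7, HOXA10 and HOXA13 lie in HOXA, HOXB3 and HOXB4 in HOXB and HOXC12 in HOXC. The shares with a TCF3 peak were thus 71.4, 73.3 and 68.8% from anterior to posterior, within each other's Wilson intervals, while 8 of the 13 members with 2 or more peaks were HOXA genes.

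ATOH8 peaks were listed at HOXA2, HOXA9, HOXA10, HOXB2 and HOXB9, and at no HOXC, HOXD or central member. The highest (chr7:27096146-27097239) had a score of 142, above that of 84.3% of the ATOH8 list. Its midpoint lay 3662 bp beyond the 3′ end of HOXA2, in the window of the non-coding gene HOTAIRM1. A peak of 92 (chr7:27169827-27170158) lay between HOXA9 and HOXA10, with its midpoint 613 bp from HOXA10 and 4455 bp from HOXA9. HOXB2 and HOXB9 each had a peak with its midpoint inside the gene, with scores of 84 (chr17:48543103-48543549) and 69 (chr17:48625866-48626554). The ATOH8 list median was 84, so 2 of the 4 peaks were above it.

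No ATOH8 peak at a HOX gene shared a base with a TCF3 peak, whereas 28.8% of all ATOH8 peaks and 12.5% of all TCF3 peaks shared one with the other list. At HOXB2 the gap between the ATOH8 and the TCF3 peak was 418 bp and at HOXB9 it was 432 bp, so both factors were listed at these genes side by side. The gaps were 3065 bp at HOXA10 and 4759 bp at HOXA2. With 4 ATOH8 peaks, a count of 0 gives little room for comparison with the share of the whole list.

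The place of the peaks relative to gene ends and starts was then examined. Of the 34 TCF3 peaks, 19 (55.9%) had their midpoint within 1 kb of a member's end, against 51.9% of the TCF3 peaks at all protein-coding genes. Of the 4 ATOH8 peaks, 3 did so, against 70.6%. At the 20 members with a known start, TCF3 peaks reached the promoter window (250 bases before to 50 after the start) of 8: HOXA3, HOXA4, HOXA6, HOXA7, HOXA9, HOXA10, HOXA13 and HOXD13. Among 15812 protein-coding genes with such a window the share was 16.2%. ATOH8 peaks reached none of the 20 (16.6% of the protein-coding genes). Only 3 of the 20 members with a known start lie in HOXB or HOXC (HOXB1, HOXC4 and HOXC5), so these counts mainly describe HOXA and HOXD.

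The 300-base promoter windows were then read for E-boxes. Of 26 distinct HOX promoter windows, 19 held CANNTG (73.1%, against 68.7% of all 34943 promoter windows), 6 held CAGCTG (23.1%, against 17.9%), 1 held CAGGTG or its reverse complement CACCTG (3.85%, against 20.6%) and 1 held CATATG (3.85%, against 3.05%). The last 3 words are forms of CANNTG. The CAGGTG match was the CACCTG word at HOXA7 and the CATATG match was at HOXA9, and both words lay outside the TCF3 peaks there. TCF3 peaks shared at least 1 bp with 8 of the 26 windows. Of the 8, 6 held CANNTG, each with at least 1 such word under the peak, and 13 of the 18 windows without a peak held the word (72.2%). The windows of HOXA13 and the internal HOXA10 start, under a peak, had no CANNTG word. Over all promoters the word was less frequent in windows with a TCF3 peak (56.2%) than in those without (70.4%). Peaks are wider than these windows, so a word outside them was not seen.

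HOX promoter windows reached by TCF3 peaks had a median of 26 CG dinucleotides, with a range of 15 to 44, against 17 in those without a peak. Few genes carry this contrast. Several windows without a peak were further annotated starts of HOXA3, with 0 to 29 CG dinucleotides. All windows with a peak except that of HOXD13 were at HOXA genes. All promoter windows reached by TCF3 peaks had a median of 31 and those without 10. GC content moved the same way, at 63.0 and 55.8% in HOX windows and 71.0 and 56.7% in all windows. The part of base composition in the counts of peaks was not tested.

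The clusters also encode microRNAs, small RNAs that repress messages matching their seed (bases 2 to 8), HOX messages among them. The mature sequences below, from RefSeq (GRCh38.p14) and 5′ to 3′, are shown because an ATOH8 peak lay near the gene of miR-196b and a TCF3 peak near that of miR-10a. Capitals mark the seed.
hsa-miR-196b-5p: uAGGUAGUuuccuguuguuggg
hsa-miR-196a-5p: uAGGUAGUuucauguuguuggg
hsa-miR-10a-5p: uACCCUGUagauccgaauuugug
The miR-196 pair share the seed AGGUAGU. MIR196B lies between HOXA9 and HOXA10, and the ATOH8 peak there had its midpoint 454 bp from the mature miR-196b-5p sequence, with the nearest TCF3 midpoint at 3191 bp. MIR10A lies beside HOXB4, 1849 bp from a TCF3 midpoint with a score of 61. miR-196a-5p is encoded by MIR196A1 in HOXB and MIR196A2 in HOXC, whose nearest TCF3 midpoints were 7422 and 8912 bp away.

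Of 24 non-coding or neighbouring genes of the clusters, 16 had a TCF3 peak by the same window (66.7%, Wilson 95% interval 46.7 to 82.0%; 32.9% of protein-coding genes) and 4 an ATOH8 peak (16.7%, 6.68 to 35.9%; 25.1% of protein-coding genes). The highest TCF3 scores were those of HOTTIP, a long non-coding RNA beside HOXA13 (120), HOXA10-AS (120) and MIR196B (120), through peaks that also count at HOXA13 and HOXA9. HOTAIR, the long non-coding RNA of the HOXC cluster, had 2 TCF3 peaks, the higher with a score of 49. ATOH8 peaks stood at HOTAIRM1 (142), HOXA10-AS (92), MIR196B (92) and HOXB-AS1 (84). These peaks are the ones described above at HOX genes. At the borders, EVX1 and EVX2, homeobox genes next to HOXA13 and HOXD13, had 3 and 2 TCF3 peaks, with top scores of 99 and 153.

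The 5 kb limit, which was applied to midpoints, decided a few of these assignments, and the distances that follow are those of midpoints. The peak of 153 at EVX2 (chr2:176082141-176082603) stood 5115 bp from HOXD13 and was left out, as were a peak of 44 at 5041 bp from HOXA13 and one of 44 at 5250 bp from HOXD3. Just inside were a peak of 70 at 4931 bp from HOXA6 and one of 89 at 4807 bp from HOXA3. For ATOH8 the last peak inside stood 4455 bp from HOXA9 and the first outside 5544 bp from HOXB3.

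Genes that work with or control HOX genes were read in the same way, against the same 32.9% (TCF3) and 25.1% (ATOH8) of all protein-coding genes. With 5 to 16 genes per list the Wilson 95% intervals were wide, and no list was tested. Of the 9 TALE homeodomain genes, whose products bind DNA together with HOX proteins, 6 had a TCF3 peak (interval 35.4 to 87.9%), highest at PKNOX2 (131), MEIS1 (120) and PBX3 (89). ATOH8 peaks stood at 3 (12.1 to 64.6%), PKNOX1 (121), PBX4 (72) and PBX3 (54). Among 12 Trithorax genes and partners, which keep HOX genes active, 8 had a TCF3 and 8 an ATOH8 peak (39.1 to 86.2% for each), 7 of them both. The highest TCF3 scores there were at KMT2C (170), WDR5 (149) and DOT1L (110), and the highest ATOH8 scores at KDM6B (341), KMT2A (188) and KMT2B (142). Of 16 Polycomb genes, 7 had a TCF3 peak (23.1 to 66.8%), led by BMI1 (154), PCGF2 (89) and SUZ12 (88). ATOH8 peaks stood at 4 (10.2 to 49.5%), a share at the level of all genes, led by CBX8 (104), PCGF2 (75) and BMI1 (73).

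Retinoic acid, the signal that opens HOX clusters from the anterior end, was represented with the CDX genes by 15 genes. TCF3 peaks were listed at 9 (35.7 to 80.2%, against 32.9% of all protein-coding genes), with ALDH1A3 (154), CYP26B1 (131), ALDH1A2 (120) and CYP26C1 (120) highest, which make or break down retinoic acid. ATOH8 peaks were listed at 2 (3.74 to 37.9%, against 25.1%), ALDH1A3 (67) and RARA (60). Of 8 genes of chromatin loops, 5 had a TCF3 peak (30.6 to 86.3%), with STAG1 (89), SMC3 (70) and WAPL (70) highest. ATOH8 peaks stood at 3 (13.7 to 69.4%), WAPL (155), STAG1 (79) and NIPBL (53). EVX and ParaHox genes had TCF3 peaks in 4 of 5 cases (37.6 to 96.4%), GSX1 (70) and PDX1 (52) besides the EVX pair, and no ATOH8 peak. For TCF3 the interval took in 32.9% in the Polycomb and loop lists, and for ATOH8 it took in 25.1% in every list but Trithorax. These intervals cover the counting of genes only, and the lists were chosen with earlier results of these data known. An interval that left out the share of all protein-coding genes therefore does not show that a list differed from them, which was not tested.

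Set beside other developmental families, HOX genes were close to the remaining homeobox genes in the share with a peak. TCF3 peaks were listed at 100 of 132 non-HOX homeobox and PAX genes (75.8%, Wilson 95% interval 67.8 to 82.3%), and ATOH8 peaks at 24 (18.2%, 12.5 to 25.6%). The clustered protocadherins, another gene array, had TCF3 peaks at 50 of 53 genes (94.3%, 84.6 to 98.1%) and ATOH8 peaks at 15 (28.3%, 18.0 to 41.6%), the latter through only 3 distinct peaks. Median TCF3 scores were 64 at HOX genes, 70 at non-HOX homeobox and PAX genes and 79 at protocadherins. The intervals of the HOX and the non-HOX homeobox shares overlapped for both factors, and no test of the difference was made.

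**Figure D4:**
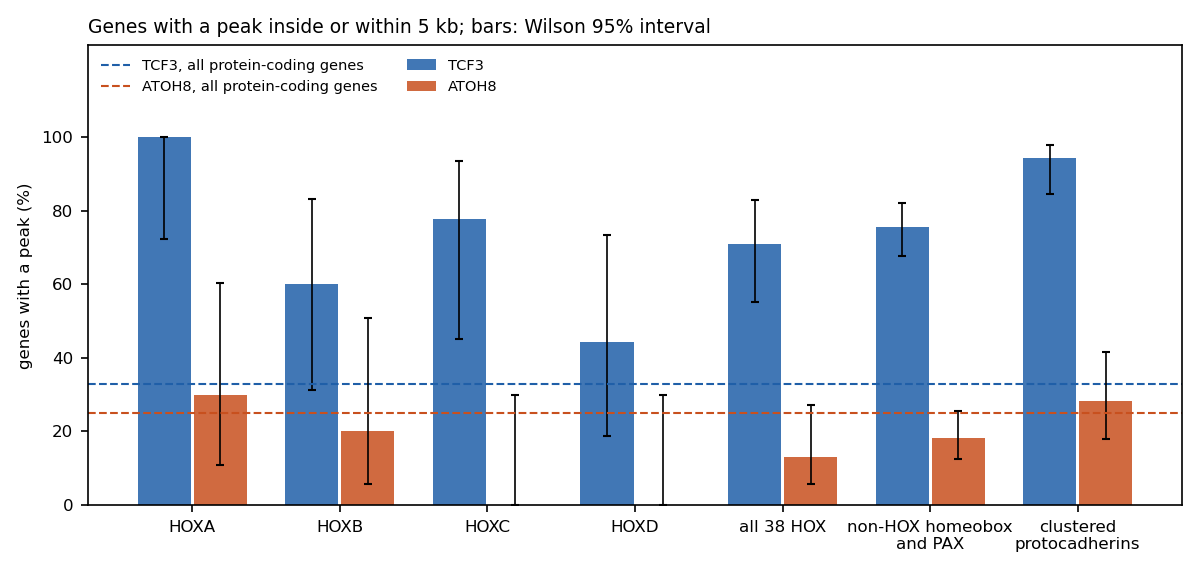
Share of genes with a TCF3 (blue) or ATOH8 (orange) peak inside or within 5 kb, for each HOX cluster, all 38 HOX members, non-HOX homeobox and PAX genes and clustered protocadherins; error bars are Wilson 95% intervals and dashed lines the shares among all protein-coding genes (32.9% and 25.1%). HOXA stands at 100% for TCF3, HOXD at 44.4%, and HOXC and HOXD have no ATOH8 peak.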

How the data were processed

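ChIP-seq peak lists of 1 ATOH8 and 1 TCF3 library of DU145 cells were used; the input libraries were not analysed here, and no replicates exist. Each deposited list gives a chromosome, start, end and score per peak; the score is the authors' value, and aligner, peak caller, threshold and input use were not given in the sources used here. Positions are on hg38, per the submitters' processing notes. Their counting base (0 or 1) was not given in the sources used here. In all, the ATOH8 list had 3 lines and the TCF3 list 5 lines without a peak. Scores jumped from 996 to 356 in the first and from 887 to 280 in the second. The lists may thus have been held in part, and medians and percentiles refer to the peaks held. Sequencing depth is unknown. Fixation used 1% formaldehyde for 10 min, per the labels' protocols.

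Peaks were assigned by midpoint to RefSeq genes (all 38 members matched), overlaps needed 1 shared bp, and percentiles are within a list. No test was made: there is 1 library per factor, and the members, gene lists and rules were chosen with earlier results of these data known. Named are all members with an ATOH8 peak, the 3 members per cluster with the highest TCF3 peaks, members without a peak and the 3 highest genes per pathway list, ties included. Some items that the rule names are left out. EVX1, EVX2 and HOTAIR were named after their values were seen. Window and overlap code was tested on simulated peaks. Alternatives are in the closing section. Python 3.11.15, numpy 2.4.6, pandas 2.3.3, scipy 1.17.1 and matplotlib 3.10.9 were used.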

Additional observations from a re-analysis of the deposited data

How the results depend on the processing

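Of 96 recomputed values, 66 stayed within 1.5 times the reported count or within its interval and 30 moved. None of the 96 has a test, and some of the 66 could not have moved, as given below. TCF3 peaks were listed at 12 members with the TCF3 list shortened to the length of the ATOH8 list, at 14 with the higher-ranked 50% of peaks, and at 12 of the 20 members with a known start when the 5 kb were taken from the start. ATOH8 peaks were listed at 3 members within 1 kb, at 19 within 50 kb, at 3 with the higher-ranked 50% of peaks and at 2 from known starts; each of these members also had a TCF3 peak, so the counts with both factors were 3, 19, 3 and 2. HOXA kept most TCF3 peaks, 14 with the higher-ranked 50% and 12 with the shortened list, while HOXB had 1 and 1, HOXC 3 and 3, and HOXD 0 and 0. The 19 members within 50 kb rested on only 2 ATOH8 peaks at HOXA and 3 at HOXB genes, shared by neighbouring members. ATOH8 peaks at HOXB genes numbered 0 with the higher-ranked 50%. That division dropped some peaks tied at its lowest score (61 for TCF3, 84 for ATOH8). With ties kept, chosen after seeing the data, it gave TCF3 peaks at 16 members, 15 peaks in HOXA, 3 in HOXB, 3 in HOXC and 0 in HOXD, and 1 ATOH8 peak in HOXB. The shortened list with ties kept gave 12 members and 12, 1, 3 and 0 TCF3 peaks in HOXA to HOXD, as before. Within 1 kb there were 1 ATOH8 peak at HOXA genes, 4 TCF3 peaks at HOXC and 2 at HOXD genes. The fall outside HOXA follows from the construction, as those scores were mostly below the list median. Gene ends only, which could only remove members, and any base in the window, which could only add them, gave the same 27 and 5 members. Leaving out the top 1% of scores could not change these counts. The highest HOX peaks scored 120 for TCF3 and 142 for ATOH8, above 85.8% and 84.3% of their lists. The count of 0 shared peaks could not change with a reciprocal overlap of 50%, as no bases were shared. Nor could it change with midpoints within 200 bp, as the smallest gap was 418 bp. No paired analysis was possible because each group has 1 library, and none could be left out.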
